A study of Rattus norvegicus with 18 samples.

Results

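Decorin (Dcn), biglycan (Bgn), asporin (Aspn), lumican (Lum), fibromodulin (Fmod), Prelp, osteomodulin (Omd), osteoglycin (Ogn) and dermatopontin (Dpt) were followed through the response of cultured neonatal rat ventricular myocytes to a hypertrophic stimulus. The 9 genes were taken by symbol from the 17312 genes of the deposited table, and all 9 were found. An estimate above 0 was given for 6 of them, and the other 3, Ogn, Omd and Aspn, were listed at 0 in every group. The cells came from 2-day-old Sprague-Dawley pups, were plated in serum and then kept in serum-free medium with ITS supplement for 24 h. They next received SR9009, a synthetic agonist of the transcriptional repressors REV-ERBα and REV-ERBβ, or vehicle for 24 h, and then phenylephrine (PE), an agonist of α1-adrenergic receptors. The groups were SR9009 at 0, 4 and 48 h of PE and vehicle at 0, 4 and 48 h of PE, with 3 libraries of stranded mRNA in each. The labels give NRVM as the only cell type and name no other cells of the cultures, nor separate isolations behind the libraries. No group was kept for 4 or 48 h without PE, so within an arm PE and time in culture cannot be told apart. For the same reason, a change after 0 h in the difference between the arms cannot be assigned to PE or to time.

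Small leucine-rich proteoglycans are secreted proteins built from a curved array of leucine-rich repeats, most of which carry chondroitin, dermatan or keratan sulfate chains. They bind fibrillar collagens and set how fibrils assemble, and decorin, biglycan and asporin also bind the growth factor TGF-β. In the heart they are made mainly by fibroblasts and related stromal cells. Dermatopontin is not a leucine-rich repeat protein. It is a small tyrosine-rich matrix protein that binds decorin and promotes collagen fibril formation.

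The promoter table of RefSeq (assembly GRCr8) held a window of 250 bases before to 50 bases after the start for 6 of the 9 genes, of which Lum, Fmod and Dpt had an estimate. These 3 windows are shown because they are those of the members with an estimate. Dcn, Bgn and Prelp had no window. Lum, Fmod and Dpt were all lower after 48 h of PE in vehicle, as was Dcn, as described further on. Capitals mark the letters of any of the 6 motifs searched on both strands.
Lum (chr7:34245456-34245755, plus strand): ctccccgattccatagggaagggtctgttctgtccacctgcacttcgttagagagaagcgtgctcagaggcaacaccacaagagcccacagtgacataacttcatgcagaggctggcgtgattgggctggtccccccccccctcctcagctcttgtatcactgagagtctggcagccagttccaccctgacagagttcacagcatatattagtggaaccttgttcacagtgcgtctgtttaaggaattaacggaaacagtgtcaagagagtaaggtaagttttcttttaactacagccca
Fmod (chr13:48045317-48045616, plus strand): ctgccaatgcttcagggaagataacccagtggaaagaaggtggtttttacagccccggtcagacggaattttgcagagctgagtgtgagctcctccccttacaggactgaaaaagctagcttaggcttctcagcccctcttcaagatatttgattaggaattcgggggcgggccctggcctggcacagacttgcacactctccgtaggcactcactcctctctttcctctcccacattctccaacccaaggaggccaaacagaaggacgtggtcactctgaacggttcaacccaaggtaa
Dpt (chr13:79656091-79656390, plus strand): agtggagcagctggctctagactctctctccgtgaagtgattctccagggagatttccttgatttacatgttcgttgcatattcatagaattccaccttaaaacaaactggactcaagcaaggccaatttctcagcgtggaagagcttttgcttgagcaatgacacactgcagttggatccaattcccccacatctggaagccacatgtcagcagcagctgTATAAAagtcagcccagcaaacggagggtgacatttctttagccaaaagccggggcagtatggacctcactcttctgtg
Among the 3 windows shown, the motif TATAAA was matched once, in Dpt, starting 29 bases before the start. It is held by 14.2% of the 33469 promoters of the same length. The REV-ERB and ROR motif TAGGTCA, held by 2.63% of promoters, and the shorter AGGTCA that it contains, held by 16.2%, were matched in none of the 3 windows. Nor were the E-box CACGTG (6.42% of promoters), the AP-1 site TGANTCA (7.33%) or the TEAD site GGAATG (14.2%). The windows not shown held 2 matches of TATAAA and 1 of GGAATG in Ogn, and 1 of AGGTCA in Omd. A window without a match says nothing about binding of a factor elsewhere. The GC content of the 3 windows was 50.7% in Lum, 52.7% in Fmod and 47.7% in Dpt.

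Levels are FPKM, a measure of fragments scaled by transcript length and by library depth, as 1 value per gene and group that the authors made from the 3 libraries. Each has a low and a high confidence bound whose level is not given in the sources used here. No standard deviation or test between groups could be computed, and depth is unknown. Differences are of log2(FPKM + 1), which understates those of low genes, and parentheses give the widest span of each difference that both groups' bounds leave possible. A gene was called higher or lower when the difference was at least 1 in size, which is 2-fold, and this range excluded 0. Each of the 6 estimated members had at least 1 FPKM in every group, the lowest value being 1.99 for Dpt, so none of them entered through its high groups alone. Summed FPKM ran from 609018 to 710198 over the groups. With groups rescaled to equal sums, the all-gene median of the PE differences in vehicle became -0.20 in place of -0.02 at 4 h and -0.19 in place of 0.01 at 48 h. With SR9009 the PE difference at 4 h had a median of -0.17 in place of -0.06. For SR9009 against vehicle at 48 h the median became 0.06 in place of -0.04, and for the interaction at 48 h 0.08 in place of -0.03.

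The labelled cell type was checked against marker genes. The 8 cardiomyocyte markers with an estimate in every group summed to between 8159 and 16109 FPKM, while Myh6 and Myh7, the myosin heavy chain genes, were each listed at 0 in some groups. Of 12 fibroblast markers that are not members, 11 were estimated and summed to between 1270 and 2507 FPKM, while Col1a2 was listed at 0. Smooth muscle and pericyte markers (10 genes) summed to between 904 and 2064 FPKM. Sums were 16.7 to 60.3 FPKM for 10 macrophage markers, 17.1 to 31.8 for 6 mesothelial, 13.7 to 23.6 for 8 endothelial and 3.69 to 6.96 for 6 glial markers. The cultures thus held transcripts of fibroblast genes beside those of myocytes, and in such bulk samples fewer cells of a type and less RNA per cell cannot be told apart.

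Ogn, Omd and Aspn lie next to each other on chromosome 17 (rn6), at 14607442 to 14627937, 14635589 to 14643812 and 14656007 to 14679409. Osteoglycin and osteomodulin are named for bone, where they were found, and asporin has a run of aspartate residues and lacks the usual sugar chains. Each was listed at exactly 0 FPKM, with both bounds at 0, in all 6 groups, and each carried 2 start site IDs in the table. The neighbouring gene Nol8 (14565794 to 14589154), which has a role in the nucleolus, also carried 2 start site IDs and was also listed at 0 in every group. So was Col1a2, whose protein joins that of Col1a1 in type I collagen, while Col1a1 lay between 403 and 817 FPKM. Of all genes with more than 1 start site ID, 410 of 810 (50.6%) were listed at 0 in all groups, against 788 of 16502 (4.78%) of the genes with 1. A listed 0 can be a failed estimate, and no level or difference is given for these 3 genes. The 6 estimated members each carried 1 start site ID.

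**Figure D1:**
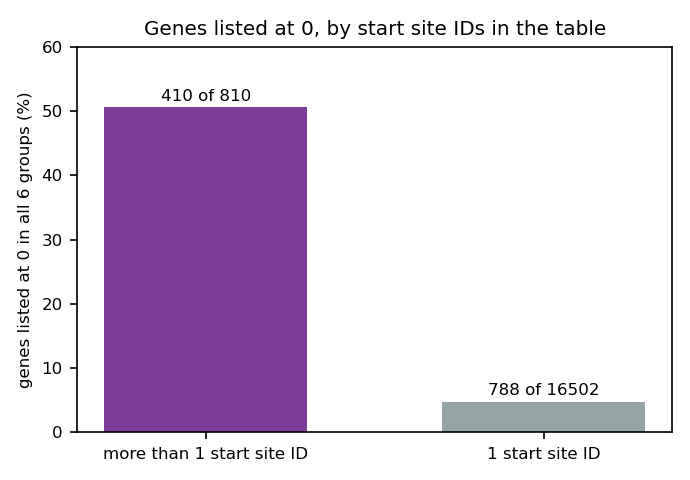
Bars give the percent of genes listed at 0 FPKM in all 6 groups, for genes with more than 1 start site ID in the deposited table (50.6%) and for genes with 1 (4.78%), with the counts above the bars. Ogn, Omd and Aspn belong to the 410 genes counted in the left bar.

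Decorin carries 1 glycosaminoglycan chain and lies on chromosome 7 (38742250 to 38782276, rn6). With SR9009 it stood at 125 FPKM at 0 h, 89.8 at 4 h and 94.1 at 48 h, and with vehicle at 115, 100.1 and 40.4 FPKM at the same times. The vehicle culture at 48 h was the only group whose bounds (34.7 to 46.1 FPKM) lay apart from those of the next group, and the other 5 groups formed a run of neighbours with overlapping bounds. Dcn was higher than 85.1% of all genes in vehicle at 48 h and than 95.4% in vehicle at 0 h.

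Lumican binds collagen and is known for its role in corneal transparency. Its gene is the next gene of the table after Dcn on chromosome 7 (38820058 to 38826862). Lum stood at 61.7 FPKM at 0 h, 46.6 at 4 h and 51.6 at 48 h with SR9009, and at 66.5, 62.3 and 18.1 FPKM with vehicle. As for Dcn, the vehicle culture at 48 h (15.6 to 20.5 FPKM) lay apart from the other 5 groups, which formed a run of neighbours with overlapping bounds.

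Biglycan, the closest relative of decorin, lies on chromosome X (157319042 to 157331204). Bgn stood at 54.7 FPKM at 0 h, 27.2 at 4 h and 66.2 at 48 h with SR9009, and at 67.7, 42.0 and 90.1 FPKM with vehicle. In both arms the 4 h value was the lowest, and vehicle at 48 h was the highest of the 6 groups, the reverse of its place for Dcn and Lum. Only vehicle at 0 h and SR9009 at 48 h had overlapping bounds among neighbours in this order. The bounds of Bgn were unusually narrow: each bound lay 0.442% from the value in SR9009 at 0 h and 3.34% in SR9009 at 4 h, against a median of at least 14.8% over genes of at least 5 FPKM in each of the 6 groups. Ranges of its differences are therefore narrow as well.

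Fibromodulin, a keratan sulfate proteoglycan that takes part in collagen cross-linking, and Prelp, which binds heparan sulfate and collagen, lie near each other on chromosome 13. Fmod (50874886 to 50885503) stood at 10.0 FPKM at 0 h, 2.83 at 4 h and 6.35 at 48 h with SR9009, and at 12.0, 3.96 and 4.00 FPKM with vehicle. Both 0 h groups were the highest and their bounds overlapped, and bounds of the lowest 3 neighbours, vehicle at 48 h and both arms at 4 h, overlapped as well. SR9009 at 48 h lay between these sets and apart from its neighbours on either side. Prelp (50751650 to 50761278) stood at 10.8, 8.26 and 8.12 FPKM with SR9009 and at 10.5, 8.66 and 6.26 FPKM with vehicle. It had the smallest span of the 6 members, and every pair of neighbouring groups overlapped.

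Dermatopontin (chromosome 13, 83073544 to 83102396) stood at 7.76 FPKM at 0 h, 3.14 at 4 h and 3.38 at 48 h with SR9009, and at 14.1, 7.04 and 1.99 FPKM with vehicle. Vehicle at 0 h lay apart above all other groups. The arms thus already lay apart for Dpt before PE was given, as they did, by less, for Bgn.

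**Figure D2:**
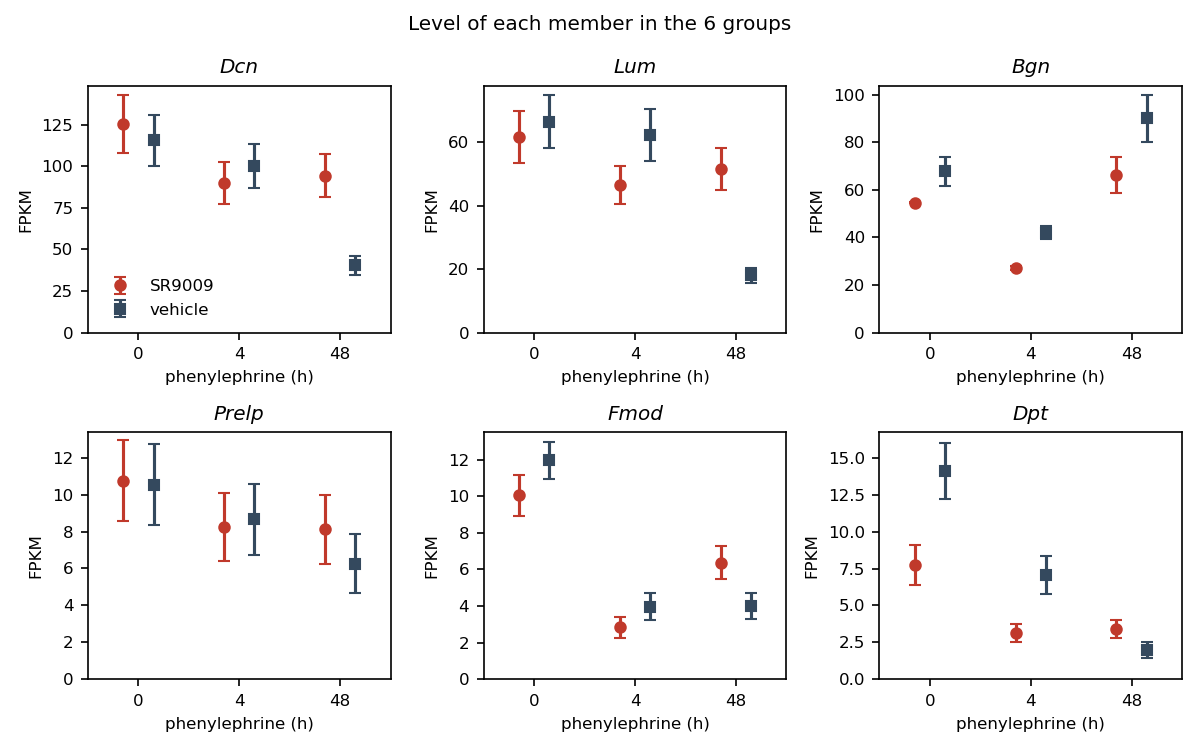
Each panel gives the FPKM of 1 member (y axis) against hours of PE (x axis), for SR9009 (circles) and vehicle (squares). Points are the authors' value for a group of 3 libraries and bars their confidence bounds. Dcn and Lum were lowest in vehicle at 48 h (40.4 and 18.1 FPKM), where Bgn was highest (90.1 FPKM).

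Within a group, levels per kilobase can be compared between genes. Dcn was the most abundant member in 5 of the 6 groups and made up 46.4%, 50.5% and 41.0% of the summed FPKM of the 6 members with SR9009 at 0, 4 and 48 h, against 40.3%, 44.7% and 25.1% with vehicle. In vehicle at 48 h Bgn took first place with 56.0% of the sum, against 28.8% with SR9009 at 48 h. The sum itself was 270, 178 and 230 FPKM with SR9009 and 286, 224 and 161 FPKM with vehicle. Lum and Bgn had overlapping bounds at 0 h in both arms. Prelp, Fmod and Dpt were in the lowest 3 places in every group, and Prelp was the highest of these 3 in every group but vehicle at 0 h, where it was the lowest. Its bounds overlapped those of its neighbour among the 3 in every group but SR9009 at 4 h.

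After 4 h of PE in vehicle, Fmod was the only member that met the rule. It had 3.96 FPKM at 4 h against 12.0 at 0 h, which differ by -1.39 (-1.72 to -1.07). All 6 differences were below 0, as were 51.6% of those over all genes tested. That of Dpt was -0.91 (-1.33 to -0.50) and that of Bgn -0.68 (-0.90 to -0.45), while the ranges of Prelp at -0.26, Dcn at -0.20 (-0.59 to 0.18) and Lum at -0.09 (-0.46 to 0.27) included 0. Over all genes tested, 2.32% were called lower and 2.75% higher, a split of 287 higher and 242 lower that became 198 and 407 when groups were rescaled to equal sums. With that rescaling Dpt was called lower too, at -1.09. The median was -0.47 over the members, against -0.02 over all genes and -0.63 over the 11 fibroblast markers, of which 10 were below 0 and 1 was called lower. The summed level of these markers was 1567 FPKM at 4 h and 2507 at 0 h. Other lists had medians of -0.41 (10 smooth muscle and pericyte markers, 2 called higher), -0.21 (5 mesothelial) and -0.59 (2 glial). Those of 9 cardiomyocyte (0.33), 7 endothelial (0.08) and 8 macrophage markers (0.003) were above 0, with 0 called. The part of these markers in the result was not tested.

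After 48 h of PE in vehicle, 4 of the 6 members were called lower than at 0 h and 0 higher. Dpt had 1.99 FPKM at 48 h against 14.1 at 0 h, which differ by -2.34 (-2.80 to -1.90), with 99.8% of the genes tested above it. Lum differed by -1.82 (-2.19 to -1.46), Dcn by -1.49 (-1.88 to -1.10) and Fmod by -1.37 (-1.71 to -1.06). Prelp, at -0.67 (-1.28 to -0.08), did not reach the required size. Bgn went the other way, with 90.1 FPKM at 48 h against 67.7 at 0 h, and its 0.41 (0.12 to 0.69) was also under that size. Of all genes tested 3.96% were called lower and 4.87% higher, a split of 507 higher and 412 lower that became 341 and 666 when groups were rescaled to equal sums. The 4 members called lower were called under each of the scalings tried, and with equal sums, where the all-gene median was -0.19, they stood at -2.52 for Dpt, -2.04 for Lum, -1.71 for Dcn and -1.56 for Fmod.

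The members' median at 48 h was -1.43, against 0.01 over all genes and -0.57 over the 11 fibroblast markers. Of these markers 10 were below 0 and 3 were called lower: Col3a1, a fibrillar collagen chain, at -1.35, the receptor Pdgfra at -1.24 and the transcription factor Tcf21 at -1.20. Their summed level was 1799 FPKM at 48 h and 2507 at 0 h. Col1a1 (-0.22), Postn (-0.23) and Vim (-0.33) of the same list had ranges that included 0, and Gsn, an actin-severing protein gene, stood above 0 at 0.79 (0.38 to 1.20). Of 8 cardiomyocyte markers 5 were below 0, with 1 called higher and 1 lower and a median of -0.29. Of 10 smooth muscle and pericyte markers 4 were called higher, led by Cnn1 (2.67), and 1 lower, with a median of 0.08. Of 7 endothelial and 8 macrophage markers all were below 0, against 49.1% of all genes. Their medians were -0.53 and -0.53, and 1 macrophage marker was called lower. Of 5 mesothelial markers 3 were below 0 and 2 were called lower, with a median of -0.57. The part of these markers in the result was not tested.

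Between 4 and 48 h of PE in vehicle the members parted. Lum (-1.73, -2.10 to -1.36), Dpt (-1.43, -1.94 to -0.93) and Dcn (-1.29, -1.68 to -0.90) were lower at 48 h, Bgn was higher (1.08, 0.82 to 1.33), and Fmod stood at 0.01. Over all genes 2.37% were called lower and 3.85% higher. With SR9009 the same step gave 0.14 (-0.23 to 0.51) for Lum, 0.08 for Dpt and 0.07 for Dcn, and 1.25 (1.03 to 1.45) for Bgn, the 1 member called higher, against 2.49% of all genes. Fmod at 0.94 (0.55 to 1.34) came just short of the required size and met it with a pseudocount of 0.1, at 1.14.

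SR9009 for 24 h before PE gave no call among the members, where 0.499% of all genes were called higher and 0.566% lower. The largest difference was that of Dpt, with 7.76 FPKM under SR9009 and 14.1 under vehicle, at -0.79 (-1.20 to -0.39), with 98.6% of the genes tested above it. Bgn differed by -0.30 (-0.43 to -0.16), its range resting on the narrow bounds given above. The ranges of Fmod (-0.23), Lum (-0.10), Prelp (0.03) and Dcn (0.12, -0.27 to 0.51) included 0. The median was -0.17 over the members and -0.15 over the fibroblast markers, of which 7 of 11 were below 0 and 0 met the rule. Of 8 macrophage markers all were below 0 and 3 were called lower, with a median of -0.77. Of 9 cardiomyocyte markers 8 were below 0, with 1 called higher and 1 lower and a median of -0.47. The medians of 10 smooth muscle and pericyte markers (-0.11) and 7 endothelial markers (0.09) lay nearer 0, with 0 called. The part of these markers in the result was not tested.

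At 4 h of PE no member was called between the arms either, where 0.499% of all genes were called higher and 1.05% lower. The split of 52 higher and 109 lower over all genes became 68 and 91 with median centring and 61 and 79 with quantile normalization. All 6 members were below 0 with SR9009, as were 59.2% of all genes, whose median was -0.06. Dpt again differed most, with 3.14 FPKM under SR9009 and 7.04 under vehicle, at -0.96 (-1.42 to -0.50), and was called lower with a pseudocount of 0.1, at -1.14. Bgn followed at -0.61 (-0.75 to -0.46) and Lum at -0.41 (-0.78 to -0.04). Prelp, at -0.06, stood at 0.001 with median centring. All 11 fibroblast markers were below 0 as well, with a median of -0.35 against -0.39 for the members, and their sum was 1270 FPKM with SR9009 and 1567 with vehicle. Of 8 macrophage markers all were below 0 and 4 were called lower, with a median of -1.03. Of 9 cardiomyocyte markers 7 were below 0 and 2 were called lower, with a median of -0.32. Of 10 smooth muscle and pericyte markers 8 were below 0 and 2 were called lower, with a median of -0.41. The part of these markers in the result was not tested.

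At 48 h of PE, Lum and Dcn were called higher with SR9009 than with vehicle. Lum had 51.6 FPKM with SR9009 and 18.1 with vehicle, a difference of 1.46 (1.10 to 1.83), and Dcn 94.1 and 40.4 FPKM, a difference of 1.20 (0.80 to 1.60). These lay above 99.3% and 98.6% of the genes tested. The comparison shares its vehicle group with that of 48 h of PE in vehicle, just as the PE differences at 4 and 48 h in an arm share the 0 h group. Fmod at 0.55 (0.17 to 0.95) and Dpt at 0.55 (0.09 to 1.03) were above 0 but under the required size, Prelp stood at 0.33 (-0.29 to 0.96), and Bgn was below 0 at -0.44 (-0.76 to -0.12). Among all genes 2.33% were called higher and 4.55% lower, with a split of 243 higher and 474 lower that became 341 and 391 when groups were rescaled to equal sums. The median was 0.55 over the members and -0.04 over all genes. The 11 fibroblast markers had a median of 0.06, with 5 below 0 and 0 called. Of these, Pdgfra stood highest at 0.996 (0.62 to 1.36), Tcf21 next at 0.66 (-0.002 to 1.34), and Col1a1 at -0.46 (-0.92 to -0.01). Mfap5 stood lowest at -0.73 (-1.72 to 0.21). Their summed level was 1791 FPKM with SR9009 and 1799 with vehicle.

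Markers of other cell types differed between the arms at 48 h as well. The 8 cardiomyocyte markers summed to 15823 FPKM with SR9009 and 13679 with vehicle. Their median difference was 0.65, above the 0.55 of the members, with 2 below 0 and 1 called higher, the calcium pump regulator gene Pln at 1.03. The 10 smooth muscle and pericyte markers summed to 904 FPKM with SR9009 and 2064 with vehicle. Their median was -0.49, and 3 were called lower, Acta2, Cspg4 and, furthest, Cnn1 at -2.65. Of 8 macrophage markers 7 were below 0, with 1 called higher and 1 lower and a median of -0.46. Medians were 0.17 over 7 endothelial and 0.04 over 5 mesothelial markers, with 0 called. Over all genes 2.33% were called higher and 4.55% lower. The part of these markers in the differences of Lum and Dcn was not tested.

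**Figure D3:**
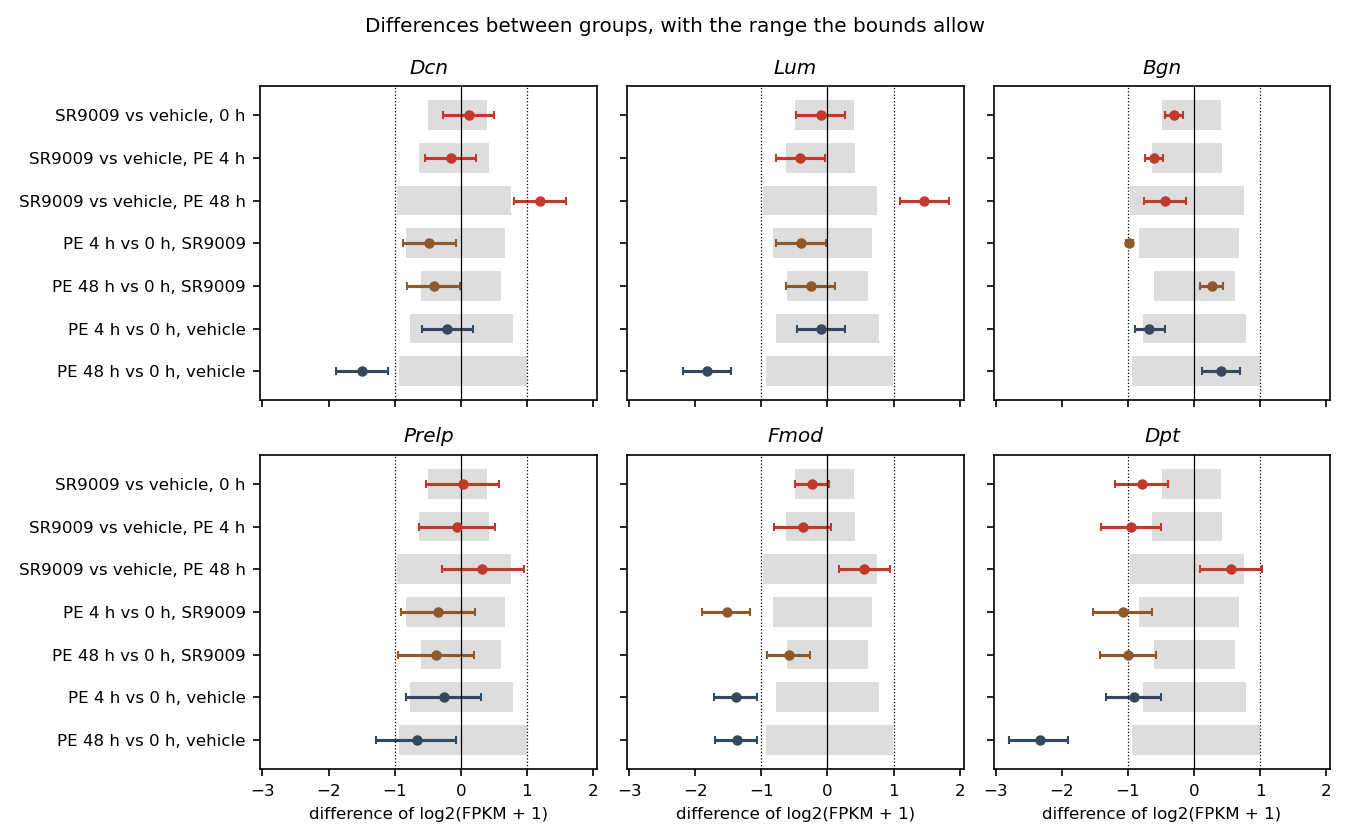
Points give the difference of log2(FPKM + 1) on the x axis for 7 comparisons on the y axis, with the range that the bounds allow as bars. Grey bands run from the 5th to the 95th percentile of all genes tested and dotted lines mark a difference of 1 in either direction. Dcn and Lum left the grey band only in the 2 comparisons that involve vehicle at 48 h of PE.

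Within the SR9009 arm, 4 h of PE gave Fmod at -1.53 (-1.90 to -1.17) and Dpt at -1.08 (-1.53 to -0.64) as lower, where 2.65% of all genes were called lower and 1.83% higher. The split over all genes was 190 higher and 276 lower, and it became 147 and 415 when groups were rescaled to equal sums, 223 and 231 with median centring and 211 and 207 with quantile normalization. With quantile normalization Dpt stood at -0.87 and was not called. Bgn at -0.98 (-1.03 to -0.93) came just short, and was called lower with a pseudocount of 0.1 and with 2 of the scalings. Dcn (-0.48), Lum (-0.40) and Prelp (-0.35) were also below 0. Of the 11 fibroblast markers all were below 0, with 3 called lower and a median of -0.58, against -0.73 over the members. Their sum was 1270 FPKM at 4 h and 2358 at 0 h. Other lists had medians of -0.55 (10 smooth muscle and pericyte markers), -0.56 (5 mesothelial) and -0.56 (2 glial). Of the smooth muscle and pericyte markers 2 were called lower and 1 higher, and of the mesothelial 1 lower. Medians were -0.16 over 7 endothelial and 0.05 over 8 macrophage markers, of which 1 was called lower. Of 10 cardiomyocyte markers 2 were called higher, with a median of 0.59. The part of these markers in the result was not tested.

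At 48 h of PE in the SR9009 arm no member met the rule, where 1.16% of all genes were called lower and 1.26% higher. Dpt stood at -0.999 (-1.42 to -0.57), with 3.38 FPKM at 48 h and 7.76 at 0 h, and was called lower with a pseudocount of 0.1 and when groups were rescaled to equal sums. With that rescaling the split over all genes was 111 higher and 165 lower in place of 131 and 121. Fmod differed by -0.59 (-0.92 to -0.26), Dcn by -0.41 (-0.81 to -0.01), Prelp by -0.37 and Lum by -0.26 (-0.63 to 0.12), while Bgn was above 0 at 0.27 (0.09 to 0.43). The median was -0.39 over the members and -0.36 over the 11 fibroblast markers, of which 9 were below 0. It was -0.51 over 5 mesothelial and -0.47 over 7 endothelial markers, all below 0, against 54.8% of all genes. Medians were -0.19 over 8 macrophage markers, 1 of them called higher, and -0.02 over 10 smooth muscle and pericyte markers. Of 8 cardiomyocyte markers 4 were called higher and 0 were below 0, with a median of 0.99. The part of these markers in the result was not tested.

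The interaction sets the PE difference with SR9009 against that with vehicle. With no group kept without PE, it cannot separate PE from time in culture or from time since SR9009 was first given. It is built from the 4 groups of the comparisons above, so it is no separate evidence beside them. At 48 h it was called for 3 members, all higher: Lum at 1.57 (0.83 to 2.31), Dpt at 1.34 (0.48 to 2.23) and Dcn at 1.08 (0.30 to 1.87). Over all genes 3.71% were called higher and 5.34% lower, a split of 386 and 555 that became 512 and 442 when groups were rescaled to equal sums. Fmod stood at 0.78 (0.14 to 1.44), Prelp at 0.30 (-0.87 to 1.48) and Bgn at -0.13 (-0.60 to 0.31). For Dpt the interaction combines an SR9009 difference below 0 before PE with one above 0 at 48 h, whereas for Dcn and Lum the arms had overlapping bounds before PE. Markers of several cell types differed in this interaction as well. Of 8 cardiomyocyte markers 5 were called higher and 0 were below 0, with a median of 1.09 against 0.93 over the members, led by Mb (2.25), which encodes myoglobin, and Ryr2 (1.83), the calcium release channel. Of 11 fibroblast markers 2 were called higher, Tcf21 (1.31) and Pdgfra (1.05), with a median of 0.08. Of 10 smooth muscle and pericyte markers 3 were called lower, with Cnn1 at -2.33, and 1 higher, Smtn at 1.24. Of 8 macrophage markers 1 was called higher, Cd74 at 3.47 (2.20 to 4.87), and 1 was below 0, with a median of 0.39. The part of these markers in the result was not tested.

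At 4 h the interaction was called for 0 members, which lay between -0.30 and -0.09, and for 0.077% of all genes as higher and 0.346% as lower.

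Ratios of FPKM within a group do not depend on scaling between groups. The ratio of Dcn to Lum was 2.03, 1.93 and 1.83 with SR9009 at 0, 4 and 48 h and 1.74, 1.61 and 2.24 with vehicle. All 6 ratios had overlapping ranges. The ratio of Dcn to Pdgfra, a receptor that marks fibroblasts, was 17.5, 18.7 and 15.2 with SR9009 and 15.4, 13.2 and 15.5 with vehicle. Pdgfra was picked after its values were seen to move like those of Dcn, so the overlap of these ranges was set by that choice and shows nothing about fibroblast markers in general. The ratio of Dcn to Bgn was 2.30, 3.30 and 1.42 with SR9009 and 1.71, 2.38 and 0.448 with vehicle. Its range in vehicle at 48 h, 0.347 to 0.574, lay below that of every other group. Relative to Col1a1, Bgn was at 0.0938, 0.0675 and 0.130 with SR9009 and at 0.0829, 0.0839 and 0.129 with vehicle, and the ranges of this ratio in the arms overlapped at 48 h. Dcn relative to Col1a1 was 0.185 with SR9009 at 48 h and 0.0576 with vehicle at 48 h.

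**Figure D4:**
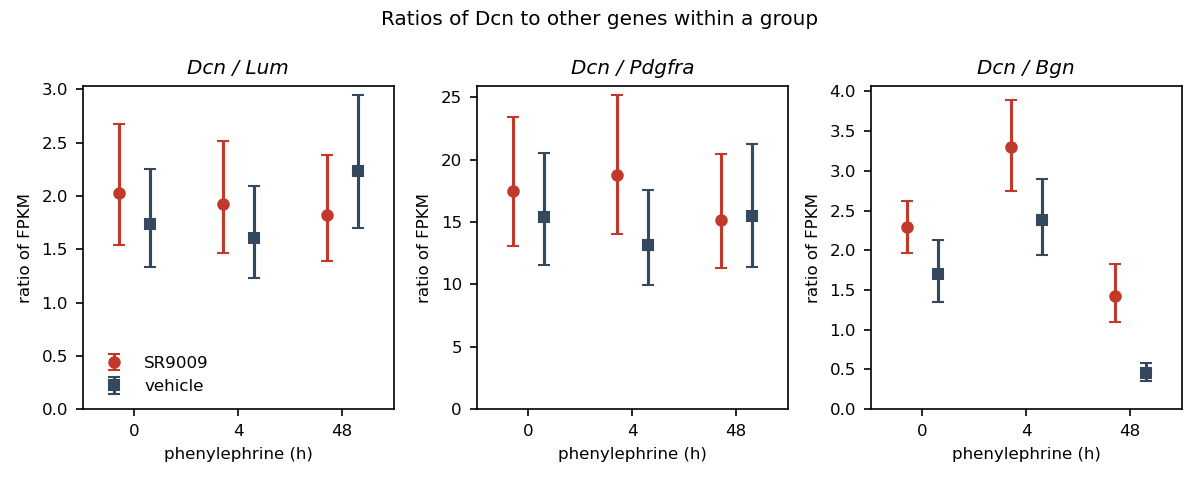
Each panel gives a ratio of FPKM within a group (y axis) against hours of PE (x axis), for SR9009 (circles) and vehicle (squares), with the range that the bounds of both genes allow. The ratios of Dcn to Lum (1.61 to 2.24) and to Pdgfra (13.2 to 18.7) overlapped in all groups, the second of them by the choice of Pdgfra, while that of Dcn to Bgn was 0.448 in vehicle at 48 h and 1.42 or more elsewhere.

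Across the 6 group values of log2(FPKM + 1), the pattern of Lum had a Pearson correlation of 0.98 with that of Dcn, and that of Prelp 0.93. Dpt followed at 0.77, Fmod at 0.55 and Bgn at -0.43. These are descriptions over 6 values that share libraries with all other genes. Among 1939 genes of at least 5 FPKM in a group that spanned at least 1 on the log2 scale, the likeness to Dcn and Bgn was ranked. A gene could enter this set through its high groups alone, so likeness to a member is partly set by the choice, and the ranks are a description. Those most like Dcn were Clip4 (r of 0.984), Aldh1a1 (0.983), Lum (0.983), the mitochondrial kinase gene Pink1 (0.981) and Bckdha (0.980). Pink1 stood at 152 FPKM with SR9009 and 43.5 with vehicle at 48 h. Those most like Bgn were Tcf19 (0.992), Stard13 (0.988), S100a3 (0.984), Dab2ip (0.981) and Ncapd3 (0.980), a condensin subunit gene.

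Of 10 other small leucine-rich proteoglycan genes, 6 were in the table. Keratocan (Kera) and opticin (Optc), which lie beside Lum and Prelp, did not exceed 0.0234 and 0.304 FPKM in any group. Epiphycan (Epyc) lay between 0.553 and 1.88 FPKM and the cartilage protein gene Chad between 0.553 and 1.35. Tsukushi (Tsku), which modulates BMP and Wnt signals, had 21.5, 12.1 and 7.64 FPKM with SR9009 at 0, 4 and 48 h and 10.5, 7.33 and 10.7 with vehicle. Its PE difference at 48 h was -1.38 with SR9009, where 1.16% of all genes were called lower. This was the 1 call between groups, over 9 comparisons, among 3 genes tested of this list. The interaction of Tsku at 48 h was called lower too, at -1.40, where 5.34% of all genes were called lower.

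The genes that collagen-binding proteoglycans work with were followed in lists. Of 8 fibrillar collagens and partners tested, all were below 0 at 48 h of PE in vehicle, against 49.1% of all genes, and 2 were called lower, against 3.96% of all genes. These were Col14a1, which binds decorin at fibril surfaces, at -1.66 and Col3a1 at -1.35, and the median was -0.38 against 0.01 over all genes. In the SR9009 arm all 8 were below 0 at 48 h of PE as well, against 54.8% of all genes, with a median of -0.54 and 0 called. With SR9009 against vehicle at 48 h their median was -0.004 with 0 called, where Dcn and Lum were called higher. Of 21 enzymes that make chondroitin, dermatan and keratan sulfate chains, the sulfotransferase gene Chst3 was called higher (1.69) and B3gnt7 lower (-1.03) at 48 h of PE in vehicle, with a median of -0.12, where 4.87% of all genes were called higher and 3.96% lower. Chst3 was called lower with SR9009 at 48 h, at -1.15, and no other enzyme was called there, where 4.55% of all genes were called lower.

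Of 12 matrix proteases and inhibitors, 3 were lower and 1 higher at 48 h of PE in vehicle, against 3.96% and 4.87% of all genes, with a median of -0.57. Adamts5, an aggrecanase, was at -2.05, Mmp2, a gelatinase that can cleave decorin, at -1.13, and Tll1, of a family that processes procollagens and proteoglycan precursors, at -1.08. The inhibitor Timp1 was at 1.08. With SR9009 at 48 h Adamts5 was called higher, at 1.02, with 7.45 FPKM against 3.17 with vehicle, the 1 call of the list, where 2.33% of all genes were called higher. Of 12 TGF-β ligands, receptors and binding proteins, Tgfb2 was higher at 48 h of PE in vehicle, at 2.05, and the receptor genes Tgfbr3 (-1.72) and Tgfbr2 (-1.21) lower. With SR9009 at 48 h Tgfb2 (-2.43), Ltbp2 (-1.33) and Smad7 (-1.03) were lower and Tgfbr3 (1.25) higher. The 12 genes thus had 1 call higher and 2 lower for PE, against 4.87% and 3.96% of all genes, and 1 higher and 3 lower for SR9009, against 2.33% and 4.55%. The level of Tgfb2 was 32.8 FPKM with SR9009 and 181 with vehicle at 48 h.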

How the data were processed

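The members and gene lists were chosen with earlier results of these data known. RNA of 18 libraries was sequenced, and the authors deposited 1 FPKM per gene and group with confidence bounds, per the file headers. Per the submitters' processing notes, the build was rn6 and the tools FastQC, Trim Galore, TopHat and Cuffdiff, without versions. How libraries were scaled, and with which annotation, is not given in the sources used here. Values per library were not used here, so the limma test planned for them was not run. From the deposited FPKM, differences of log2(FPKM + 1) were computed with Python 3.11.15, numpy 2.4.6 and pandas 2.3.3, for 10545 genes of a mean of at least 1 FPKM. Values with the status HIDATA (3 to 8 genes a group) or outside their own bounds (27 to 32 genes a group), and differences against a listed 0, were left out. The call rule was checked on simulated data whose noise and bounds were both set from the authors' bounds. The level of those bounds is unknown, so this check cannot show how often the rule errs in these data. Of each list other than the members, the genes named were up to 4 that met the rule with the largest differences, beside markers, neighbours of members, genes set against members in ratios, and the genes most like Dcn and Bgn (5 each). Col1a1, Postn, Vim, Gsn, Mfap5, Epyc and Chad, and the uncalled differences of Pdgfra and Tcf21, were named after their values were seen. Loci are those of the table with the first base counted as 1, the table's start being read as counted from 0, because gene lengths then equal those of the RefSeq table for 2074 genes, against 277 otherwise. Rescaling to equal sums, median centring, quantile normalization, a pseudocount of 0.1, no filter, size alone and bounds alone were tried as alternatives.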

Additional observations from a re-analysis of the deposited data

Results flagged for a closer look

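For 5 pairs of comparisons, a member's difference had opposite signs at different times, with both ranges excluding 0. No replicate test of these was possible. The SR9009 difference of Lum was -0.41 at 4 h of PE and 1.46 at 48 h, 1.87 apart. The SR9009 difference of Dpt was -0.79 at 0 h, -0.96 at 4 h and 0.55 at 48 h. The 1.34 between 48 h and 0 h is the interaction at 48 h given above, called higher with a range of 0.48 to 2.23. For the 1.51 between 48 h and 4 h of Dpt, and for the 1.87 of Lum, no range was computed. The PE difference of Bgn was -0.98 at 4 h and 0.27 at 48 h with SR9009, 1.25 apart, and -0.68 and 0.41 in vehicle, 1.08 apart. Since both times share the 0 h group of their arm, these are the differences between 48 and 4 h of PE given above, both called higher, and the bounds of Bgn were narrow.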

How the results depend on the processing

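No paired analysis was possible because the table holds 1 value per group, and leaving out a replicate was not run for the same reason. Of 462 differences of members under 7 alternatives, 425 kept their direction and their side of the call rule, 30 were called only under the alternative and 1 lost its call (Dpt at 4 h of PE with SR9009, -0.87 with quantile normalization). The other 6, none of them called, lay near 0 and changed sign. With a pseudocount of 0.1 the number of members called was 1 in place of 0 for SR9009 at 4 h and for 48 h of PE with SR9009, and 2 in place of 1 for 48 against 4 h with SR9009. Under rescaling to equal sums it was 2 in place of 1 for 4 h of PE in vehicle and 1 in place of 0 for 48 h of PE with SR9009. With bounds alone and no size, the members called were 3 for 4 h of PE in vehicle, 5 for 4 h and 4 for 48 h of PE with SR9009, 2 for 48 against 4 h with SR9009, 2, 3 and 5 for SR9009 at 0, 4 and 48 h, and 1 for the interaction at 4 h. The other counts of members called stayed within 1.5 times under the alternatives run. Over all genes, a pseudocount of 0.1 gave 255 calls for SR9009 at 4 h in place of 161, and size alone 84 for the interaction at 4 h in place of 44. Bounds alone, which drop the size, gave between 89 and 3319. The causes were not tested. Depth is unknown, and precision is limited by the authors' bounds, which lay 27.7% from the value for Dpt in vehicle at 48 h.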
